A study of Homo sapiens with 28 samples.

Results

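HOTAIRM1 and 4 anterior HOX genes, HOXA2, HOXB1, HOXB2 and HOXB3, were followed through neural differentiation of human embryonic stem cells with and without SOX1. The 5 genes were chosen by symbol, with no threshold on their values but with earlier results of these data known. Their p-values and ranks are therefore descriptions and not independent findings. Each had 1 entry among the 58219 genes measured. RNA selected for poly(A) tails was sequenced from H9, an established human embryonic stem cell line, that was either SOX1-/- (here KO) or wild type (WT). SOX1 encodes a transcription factor of early neural cells, and the study asked what it does at this stage. KO and WT cells were each collected as embryonic stem cells on day 0 (ES) and, as neural progenitor cells, under the labels IWP2, CT0.4 and CT1.0 on days 4 and 8, which gave 14 groups of 2 libraries each and 28 libraries in all. IWP2 is known as an inhibitor of WNT secretion, whereas the labels do not spell out CT and give its number no unit. KO libraries carry the numbers 26 and 48 and WT libraries the numbers 1 and 2. Since the labels do not say whether a number marks a clone or a culture, p-values here speak only of how much these libraries vary, and that variation may be technical. Sequencing was on HiSeq2000 or X-ten, and as the labels do not tie either to a library, the run format and the groups cannot be told apart.

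HOX genes encode homeodomain transcription factors and lie in clusters, in which the order of the genes follows the order of their expression from the hindbrain towards the tail. The genes at the anterior end of the clusters are switched on in the hindbrain by retinoic acid and by signals, WNT among them, that make neural tissue more posterior. HOXA2 is the HOX gene whose expression reaches furthest forward in the hindbrain, HOXB1 is known as the marker of the fourth rhombomere (a hindbrain segment), and HOXB2 and HOXB3 are expressed in hindbrain segments behind the forward limit of HOXA2. HOTAIRM1 is a long noncoding RNA from the anterior end of the HOXA cluster, described in myeloid cells and known to respond to retinoic acid.

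In GENCODE 29 on GRCh38, HOTAIRM1 lies at chr7:27095647-27100265 on the plus strand, beside HOXA2, which lies on the minus strand. It has 6 transcript models and 1496 exonic bases. HOXA2, at chr7:27100354-27102811, lies 88 bases past the end of HOTAIRM1 and shares no exonic base with it. HOXB1 lies at chr17:48528526-48531001, HOXB2 at chr17:48540894-48544989 and HOXB3 at chr17:48548870-48604912, all on the minus strand. HOXB2 shares 87 exonic bases with HOXB-AS1, and HOXB3 shares 374 with HOXB-AS1 and 77 with HOXB-AS3, all on the opposite strand. Because strandedness is not stated, reads in those shared stretches cannot be assigned to a strand.

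**Figure D1:**
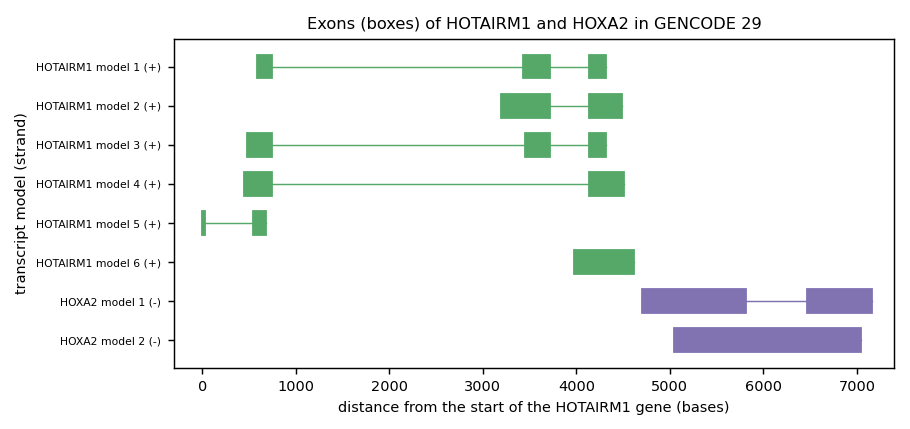
Transcript models of HOTAIRM1 and HOXA2 in GENCODE 29, drawn to scale by distance in bases from the start of the HOTAIRM1 gene. Boxes are exons, and the strand stands in brackets; HOTAIRM1 ends 88 bases from HOXA2.

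The exon of HOTAIRM1 shown next is held by 5 of the 6 models and shares 0 bases with exons of HOXA2, so it is a stretch common to most models that tells HOTAIRM1 apart from this neighbour. It lies at chr7:27099779-27099966 on the plus strand (GRCh38, GENCODE 29) and is 188 bases long.
HOTAIRM1 exon: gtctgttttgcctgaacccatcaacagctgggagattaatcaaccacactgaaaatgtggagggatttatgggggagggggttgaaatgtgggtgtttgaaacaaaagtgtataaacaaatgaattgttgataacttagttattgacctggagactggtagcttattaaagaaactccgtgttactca

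The homeoboxes of HOXA2, HOXB1 and HOXB2, the DNA that encodes the DNA-binding homeodomain, are shown to compare a part that these genes have in common. The comparison asks how long a stretch could be read as the wrong gene. All are from GENCODE 29 transcripts (GRCh38, minus strand), at chr7:27101251-27101430 for HOXA2, chr17:48529667-48529846 for HOXB1 and chr17:48543533-48543712 for HOXB2. Capitals mark the bases that differ from HOXA2.
HOXA2 homeobox: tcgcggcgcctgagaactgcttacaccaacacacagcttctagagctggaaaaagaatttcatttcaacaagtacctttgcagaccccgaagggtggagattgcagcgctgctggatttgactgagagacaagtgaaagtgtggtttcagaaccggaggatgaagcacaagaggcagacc
HOXB1 homeobox: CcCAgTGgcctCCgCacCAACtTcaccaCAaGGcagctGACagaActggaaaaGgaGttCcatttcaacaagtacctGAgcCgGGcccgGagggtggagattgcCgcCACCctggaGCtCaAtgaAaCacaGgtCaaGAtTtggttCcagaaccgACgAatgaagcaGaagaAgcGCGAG
HOXB2 homeobox: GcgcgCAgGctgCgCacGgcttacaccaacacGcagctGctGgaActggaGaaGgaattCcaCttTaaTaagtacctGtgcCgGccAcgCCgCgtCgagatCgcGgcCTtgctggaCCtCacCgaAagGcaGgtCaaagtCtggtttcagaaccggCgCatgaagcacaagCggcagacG
HOXB1 has the same base as HOXA2 at 68.3% of these positions and HOXB2 at 76.7%. The longest identical run with HOXA2 is 17 bases in HOXB1 and 15 in HOXB2. Over whole transcripts, 0 words of 31 bases of HOXA2, HOXB1 or HOXB2 occur in another gene on the same strand, against 509 of 7579 (6.72%) for HOXB3, shared with HOXA3, HOXB4, HOXB5, HOXB6, HOXD3 and AC009336.2, which makes HOXB3 the less certain value. For HOTAIRM1, 496 of 1517 words (32.7%) recur in 5 short models inside its own locus, which the deposited table lists as HOTAIRM1_1 to HOTAIRM1_5. All 5 were listed at 0 in all 28 libraries.

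The promoter windows of HOXA2 and HOXB1 are shown because the first gene was the HOX gene with the highest level in these cells and the second stayed at or near 0. Both are RefSeq windows on GRCh38.p14, read along the minus strand, at chr7:27102634-27102933 for HOXA2 and chr17:48530962-48531261 for HOXB1, and 2 of the 5 genes had a window in the table used. Capitals mark matches to TGATNNAT, the PBX-HOX motif, and to CTTTGA, the TCF/LEF motif.
HOXA2 promoter: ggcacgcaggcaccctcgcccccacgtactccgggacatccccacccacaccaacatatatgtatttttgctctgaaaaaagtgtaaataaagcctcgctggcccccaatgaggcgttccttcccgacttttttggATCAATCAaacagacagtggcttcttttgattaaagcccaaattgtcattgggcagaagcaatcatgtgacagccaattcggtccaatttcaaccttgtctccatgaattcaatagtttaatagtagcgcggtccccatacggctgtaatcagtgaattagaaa
HOXB1 promoter: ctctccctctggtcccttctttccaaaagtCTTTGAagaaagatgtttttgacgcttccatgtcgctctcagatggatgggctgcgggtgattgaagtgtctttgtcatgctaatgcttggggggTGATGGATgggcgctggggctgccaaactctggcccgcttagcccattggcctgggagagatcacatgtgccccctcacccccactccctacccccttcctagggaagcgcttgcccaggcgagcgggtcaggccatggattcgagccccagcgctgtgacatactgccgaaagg
HOXA2 held 1 match to TGATNNAT, on the strand opposite to the gene and 114 bases before the start that the RefSeq table uses, a position inside the first exon of the longer GENCODE 29 model. HOXB1 held 1 match to TGATNNAT at 125 bases and 1 to CTTTGA at 220 bases before its RefSeq start, both on its own strand. Neither window held ACAATG (the SOX motif) or the DR5 retinoic acid response element on either strand. Nor did either hold AGGTCA, a spelling of the retinoic acid receptor motif. Other spellings were not counted by themselves, and the HOXB1 window held GGGTCA, which differs from AGGTCA by 1 base. Of 35116 promoter windows, 7.40% held TGATNNAT, 12.9% CTTTGA, 10.8% ACAATG, 13.8% AGGTCA and 0.0883% the DR5 element. A match is a description of the letters and not a site of binding.

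Levels are given as TPM, the authors' length-scaled measure of a gene's share of all transcripts in a library. HOTAIRM1 was read in the CT1.0 libraries and hardly elsewhere. In CT1.0 on day 4 it stood at 5.81 and 49.9 TPM in KO 26 and 48, against 49.4 and 70.2 TPM in WT 1 and 2. On day 8 of CT1.0 it stood at 147 and 178 TPM in KO 26 and 48, against 114 and 161 TPM in WT 1 and 2. In the 20 libraries of ES, IWP2 and CT0.4 it was between 0 and 1.01 TPM, with a median of 0.198, and 8 of the 20 were listed at 0. The one library of those at 1 TPM was KO 48 in ES, at 1.01. By group mean the order was KO CT1.0 day 8, WT CT1.0 day 8, WT CT1.0 day 4 and KO CT1.0 day 4. The libraries of the first pair overlapped, as did those of the second.

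HOXA2, the HOX gene expressed furthest forward in the hindbrain, followed the same labels at lower levels. Day 4 of CT1.0 gave 0.899 and 11.3 TPM in KO 26 and 48, against 18.5 and 24.8 TPM in WT 1 and 2. Day 8 gave 7.60 and 17.0 TPM in KO 26 and 48, against 25.6 and 27.6 TPM in WT 1 and 2. All 4 KO libraries of CT1.0 were below all 4 WT libraries, and KO 26 was the lowest on both days. The 20 other libraries reached at most 0.179 TPM, and 11 of them were listed at 0. By group mean the order was WT day 8, WT day 4, KO day 8 and KO day 4, and only the libraries of the last pair overlapped.

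HOXB1 and HOXB2 were at or near 0 under every label. HOXB1 reached at most 0.209 TPM, in KO 48 under IWP2 on day 8, and 11 of 28 libraries were listed at 0. In CT1.0 on day 8, where HOXA2 was at its highest, HOXB1 was listed at 0 in all 4 libraries of both genotypes. HOXB2 reached at most 0.163 TPM, in WT 1 under IWP2 on day 8, and 13 of 28 libraries were listed at 0. HOXB2 was listed at 0 in all 4 libraries of CT1.0 on day 4. Neither gene reached 1 TPM in any library, so neither was tested, and TPM keeps no read depth from which a detection limit could be set.

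HOXB3 was above 0 in all 28 libraries, from 0.0176 to 2.04 TPM, with a median of 0.268. It reached 1 TPM in 4 libraries of 4 different groups. These were KO 48 under IWP2 on day 8 (2.04), KO 48 under CT1.0 on day 8 (1.51), WT 2 under CT0.4 on day 8 (1.2) and WT 1 in ES (1.16). Its highest group means, 1.15 ± 1.26 TPM in KO IWP2 day 8, 1.02 ± 0.262 TPM in WT CT0.4 day 8 and 0.886 ± 0.877 TPM in KO CT1.0 day 8 (SD, n = 2 each), did not differ beyond their spread. The other 11 groups had lower means, down to 0.114 TPM in WT CT0.4 day 4. The levels of HOXB3 thus followed neither the label CT1.0 nor the levels of HOXA2.

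**Figure D2:**
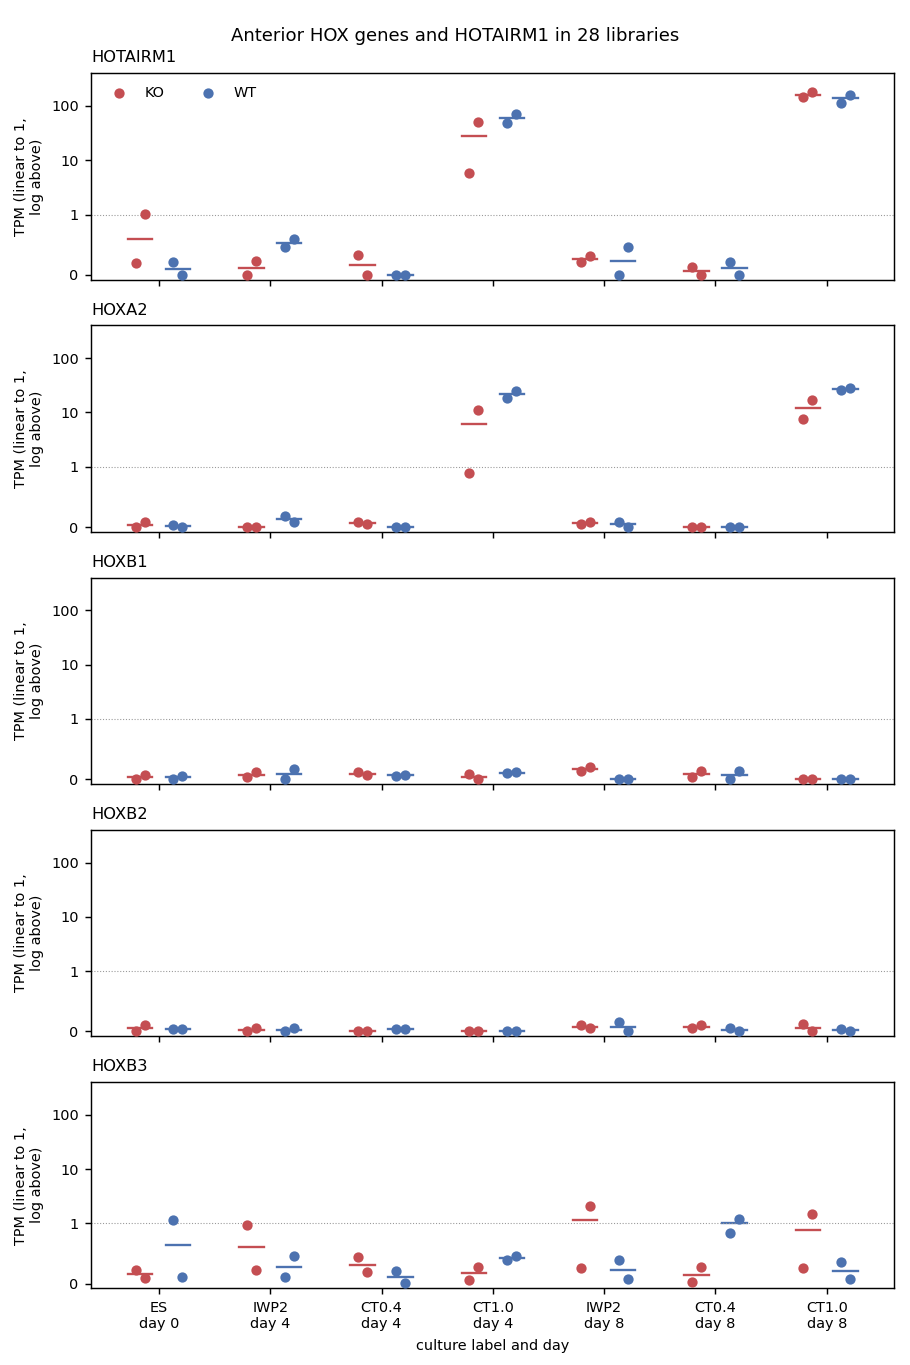
TPM of each gene in every library by culture label and day, KO in red at the left and WT in blue at the right of each pair; points are libraries, bars are group means, and the axis is linear up to 1 TPM (dotted line) and logarithmic above. HOTAIRM1 and HOXA2 stand above 1 TPM in the CT1.0 libraries, except HOXA2 in KO 26 on day 4 at 0.899, while HOXB1 and HOXB2 reach at most 0.209 TPM.

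Genes were tested with limma on log2(TPM + 1) if at least 2 libraries reached 1 TPM, which 27912 genes and 3 of the 5 described here did. A gene was called where its p, adjusted by the Benjamini-Hochberg method over all genes tested in that comparison, was below 0.05. Fold changes are on the log2(TPM + 1) scale, which understates changes of low genes, and are given with the SE. The SE of a gene comes mainly from its spread within all 14 groups. For HOTAIRM1 and HOXA2 most of those groups were near 0, so SE and interval do not measure the spread of the groups compared. Leaving out a library number leaves 1 library in each group of that genotype. The spread then comes from the other genotype, and p-values of such fits carry that limit. HOXA2 passed the filter through CT1.0 libraries alone, and HOTAIRM1 through these and 1 ES library. Counts over the genes that passed are therefore descriptions.

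The labels were compared within each genotype. HOTAIRM1 and HOXA2 were higher in CT1.0 than in IWP2 and in CT0.4, in KO and in WT cells, on both days. On day 4 HOTAIRM1 was higher in CT1.0 than in IWP2 by 4.07 ± 0.57 in KO (limma adjusted p = 0.000143) and by 5.30 ± 0.57 in WT (adjusted p = 7.48e-06). HOXA2 was called higher in KO, where both IWP2 libraries were listed at 0 and no fold is given (adjusted p = 0.00798). In WT HOXA2 was higher by 4.31 ± 0.53 (adjusted p = 2.52e-05). Of the 3 tested, these were the genes called higher, where 5.27% of all genes tested were called higher in KO and 2.82% in WT. They passed the filter almost only through CT1.0 libraries, so this count and those of the other label comparisons are descriptions and no support.

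Against CT0.4 on day 4, both were again called higher in each genotype, where 0.645% of all genes were called higher in KO and 2.00% in WT. HOTAIRM1 was higher by 4.01 ± 0.57 in KO (limma adjusted p = 0.00129), and in WT it was listed at 0 in both CT0.4 libraries (adjusted p = 5.64e-06). HOXA2 was higher by 2.18 ± 0.53 in KO (adjusted p = 0.0445), and in WT it was listed at 0 in both CT0.4 libraries (adjusted p = 4.28e-05). The KO differences of day 4 rest on unequal libraries. The HOTAIRM1 difference from CT0.4 was 5.67 without KO 26 and 2.35 without KO 48 (limma adjusted p = 0.0245). The HOXA2 difference from CT0.4 was 3.55 without KO 26 (adjusted p = 5.66e-05), whereas without KO 48 it was 0.81 (limma adjusted p = 0.198) and that from IWP2 was not called either (adjusted p = 0.0547). Over all 11 alternatives the adjusted p of HOXA2 in KO ran from 5.66e-05 to 0.601 against CT0.4 and from 4.07e-05 to 0.409 against IWP2. Leaving out WT 1 or WT 2, which feed the pooled spread, also ended both HOXA2 calls in KO and that of HOTAIRM1 against CT0.4 (limma adjusted p up to 0.439 over its alternatives). In WT, the HOXA2 call against CT0.4 was lost without WT 1 and without WT 2 (limma adjusted p up to 0.126 over its alternatives), and that of HOTAIRM1 without WT 2 (adjusted p = 0.0619).

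On day 8 the differences were larger. HOTAIRM1 was higher in CT1.0 than in IWP2 by 7.01 ± 0.57 in KO (limma adjusted p = 2.35e-07) and by 6.82 ± 0.57 in WT (adjusted p = 3.46e-07). It was higher than in CT0.4 by 7.26 ± 0.57 in KO (adjusted p = 1.23e-07) and by 6.96 ± 0.57 in WT (adjusted p = 1.83e-07). Among all 27912 genes, the KO difference from CT0.4 ranked 1 by absolute size and the WT difference ranked 3. HOXA2 was higher than in IWP2 by 3.54 ± 0.53 in KO (limma adjusted p = 0.000128) and by 4.72 ± 0.53 in WT (adjusted p = 9.47e-06). Against CT0.4, where HOXA2 was listed at 0 in all 4 libraries, it was called higher in KO (adjusted p = 6.92e-05) and in WT (adjusted p = 5.19e-06). The shares of all genes called higher were 3.78% in KO and 2.97% in WT against IWP2, and 4.54% in KO and 4.20% in WT against CT0.4. HOXB3 was called in none of these 8 comparisons between labels, with log2 fold changes between -0.74 and 0.64.

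KO and WT cells were compared at each label and day. In CT1.0 on day 4 HOXA2 was called lower in KO, by 2.22 ± 0.53 (log2 fold change -2.22, 95% interval -3.33 to -1.10, limma adjusted p = 0.00942). HOTAIRM1 had a log2 fold change of -1.69 ± 0.57 (95% interval -2.89 to -0.48, limma adjusted p = 0.0567) and was not called. HOXB3 had -0.29 ± 0.40 (adjusted p = 0.712). Of the 3 genes tested 1 was called lower, where 2.49% of all genes were called lower.

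The size of both differences depended on which KO library was used, since KO 26 was far below KO 48. For HOXA2 the log2 fold change was -0.87 without KO 26 (limma adjusted p = 0.0387) and -3.56 without KO 48 (adjusted p = 1.73e-05). The call was lost without WT 1 (adjusted p = 0.166), without WT 2 (adjusted p = 0.216) and in a fit of the 4 compared libraries only (adjusted p = 0.367), the highest of 11 alternatives, of which 8 kept it. For HOTAIRM1 the log2 fold change was -0.24 without KO 26 (limma adjusted p = 0.763) and -3.14 without KO 48 (adjusted p = 0.000849), the highest and the lowest adjusted p of its alternatives. HOTAIRM1 was also called with the library number as a block (limma adjusted p = 0.0489). The median of all genes tested was 0.19 higher in KO at this label and day. After median-ratio scaling, which brings it to 0.01, the log2 fold change was -2.47 for HOXA2 (limma adjusted p = 0.00433) and -1.95 for HOTAIRM1 (adjusted p = 0.0291), so both were then called lower.

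On day 8 of CT1.0 none of the 3 genes was called at a background of 14.3% of all genes called, and 1, HOXA2, had an unadjusted p below 0.05 in limma. HOXA2 had a log2 fold change of -1.15 ± 0.53 (95% interval -2.26 to -0.03, limma adjusted p = 0.175), with both KO libraries below both WT libraries. Without KO 48 it was -1.68 (limma adjusted p = 0.00116), the lowest adjusted p of 11 alternatives, which ran up to 0.542. HOTAIRM1 had 0.25 ± 0.57 (95% interval -0.95 to 1.45, limma adjusted p = 0.879), with libraries that overlapped. HOXB3 had 0.56 ± 0.40 (adjusted p = 0.428). In ES and under IWP2 and CT0.4, where HOTAIRM1 and HOXA2 were near 0, none of the 3 genes was called, and 0 had an unadjusted p below 0.05 in limma. The shares of all genes called there were 0.219% in ES, 0.0430% in IWP2 day 4, 4.24% in CT0.4 day 4, 0.0609% in IWP2 day 8 and 0.416% in CT0.4 day 8.

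**Figure D3:**
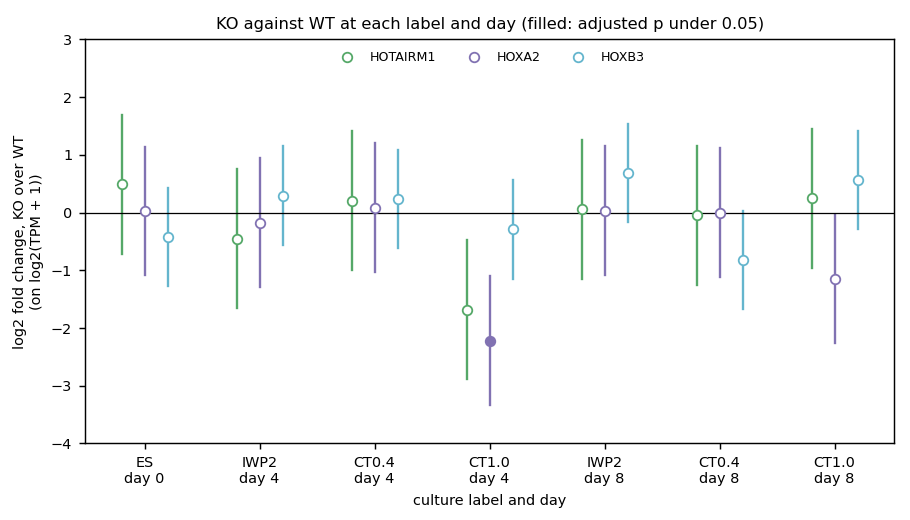
Log2 fold change of KO over WT on the log2(TPM + 1) scale for HOTAIRM1, HOXA2 and HOXB3 at each label and day, with the 95% interval from limma; filled points have an adjusted p below 0.05. The 1 filled point is HOXA2 in CT1.0 on day 4, at -2.22.

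Whether the KO difference itself changed with label or day was tested as an interaction. HOTAIRM1 and HOXA2 were near 0 in IWP2 and CT0.4 in both genotypes, where hardly any KO difference could show. For these genes the tests between labels therefore mostly restate the CT1.0 difference with a larger SE. They cannot decide whether that difference depends on the label. On day 4 the HOXA2 difference in CT1.0 minus that in IWP2 was -2.04 ± 0.75 (limma adjusted p = 0.126), and that of HOTAIRM1 was -1.23 ± 0.81 (adjusted p = 0.438). On day 8 the values were -1.18 ± 0.75 for HOXA2 (limma adjusted p = 0.446) and 0.19 ± 0.81 for HOTAIRM1 (adjusted p = 0.961). Between day 8 and day 4 in CT1.0 the KO difference of HOTAIRM1 moved by 1.94 ± 0.81 (limma adjusted p = 0.157) and that of HOXA2 by 1.07 ± 0.75 (adjusted p = 0.434). None of the 3 genes was called in these 3 tests, in which 5.09%, 3.22% and 7.56% of all genes were called, and at an unadjusted p below 0.05 limma gave 1, 0 and 1 of them. Nor was any called where CT0.4 took the place of IWP2, at 0.297% of all genes called on day 4 and 4.60% on day 8, where 2 and 1 had an unadjusted p below 0.05. The sizes depended on the libraries used. Over the 11 alternatives, the day 4 value of HOXA2 for CT1.0 minus IWP2 ran from -3.39 to -0.70. That of HOTAIRM1 ran from -2.53 to 0.07. Leaving out KO 48 leaves 1 KO library in each group, which removes the spread between KO libraries. Calls from that fit therefore cannot decide whether the KO difference changed and are not given.

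HOTAIRM1 and HOXA2 did not keep one proportion, and HOTAIRM1 stood higher relative to HOXA2 in KO. TPM is scaled by length, so the ratio of the levels can be read directly. On day 4 of CT1.0 HOTAIRM1 over HOXA2 was 6.47 and 4.43 in KO 26 and 48, against 2.66 and 2.83 in WT 1 and 2. On day 8 it was 19.3 and 10.4 in KO 26 and 48, against 4.47 and 5.82 in WT 1 and 2. The genotypes did not overlap on either day, and the ratio was higher on day 8 than on day 4 in each of the 4 library numbers. An exact permutation test of 2 against 2 libraries cannot give a two-sided p below 0.333, and the ratio was not tested in another way.

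**Figure D4:**
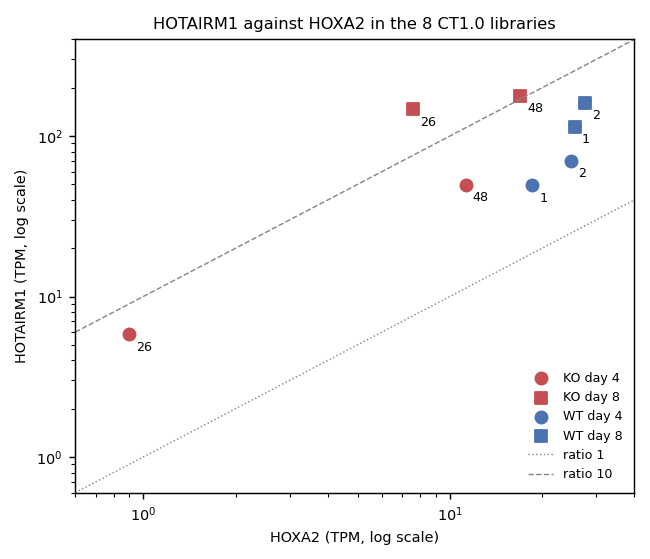
HOTAIRM1 against HOXA2 in TPM, both on log axes, in the 8 CT1.0 libraries, labelled with their numbers; KO red, WT blue, circles day 4, squares day 8, with lines at ratios of 1 and 10. The 4 KO libraries lie to the left of the WT libraries of the same day and at higher ratios, and both day 8 KO libraries lie above a ratio of 10.

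Over time in CT1.0, HOTAIRM1 and HOXA2 were higher on day 4 than in ES in both genotypes. HOTAIRM1 was higher by 3.59 ± 0.57 in KO (limma adjusted p = 7.58e-05) and by 5.77 ± 0.57 in WT (adjusted p = 5.12e-07). HOXA2 was higher by 2.21 ± 0.53 in KO (limma adjusted p = 0.0028) and by 4.46 ± 0.53 in WT (adjusted p = 3.99e-06). Of all genes, 20.0% were called higher in KO and 10.2% in WT. The KO sizes again rest on unequal libraries. HOXA2 was higher than in ES by 3.50 without KO 26 (limma adjusted p = 1.78e-05) and by 0.93 without KO 48 (adjusted p = 0.0161). HOTAIRM1 was higher by 4.66 without KO 26 (limma adjusted p = 6.13e-05) and by 2.52 without KO 48 (adjusted p = 0.00162). In a fit of the compared libraries only, neither was called in KO (limma adjusted p = 0.274 for HOXA2 and 0.156 for HOTAIRM1, the highest of their alternatives). Between day 8 and day 4, HOTAIRM1 was called higher in KO by 3.13 ± 0.57 (limma adjusted p = 0.0017), where 4.16% of all genes were called higher. That difference was 1.81 without KO 26 (limma adjusted p = 0.0333) and 4.44 without KO 48 (adjusted p = 0.000283). In WT it had 1.19 ± 0.57 (limma adjusted p = 0.192), with both day 8 libraries above both day 4 libraries, and was not called. HOXA2 had 1.37 ± 0.53 in KO (limma adjusted p = 0.115) and 0.30 ± 0.53 in WT (adjusted p = 0.819). In WT, where 14.7% of all genes were called, none of the 3 genes was, and 0 had an unadjusted p below 0.05 in limma. HOXB3 was called in none of the 4 comparisons of days. These calls between day 8 and day 4 turned on the setting. The call of HOTAIRM1 in KO was lost with a pseudocount of 0.1 (limma adjusted p = 0.0607, over all alternatives 0.000283 to 0.353). In WT it was called without KO 26 (limma adjusted p = 0.0192) and without KO 48 (adjusted p = 0.0197), with a highest value of 0.696. HOXA2 was called in KO without KO 48, by 2.18 (limma adjusted p = 0.000952, the lowest of values up to 0.602).

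Beside HOXA2 and HOXB3, other HOX genes were low, and 34 of them stayed below 1 TPM in every library, at most at 0.973. HOXA2 made up 42.4% of the summed TPM of all HOX genes in KO 26 and 83.1% in KO 48 of CT1.0 day 4, against 84.6% and 86.1% in WT 1 and 2. On day 8 it made up 82.3% and 81.8% in KO 26 and 48, against 87.1% and 89.1% in WT 1 and 2. Among 19 listed antisense RNAs, long noncoding RNAs and neighbouring genes of the HOX clusters, 2 were tested, HOXB-AS3 (antisense) and PRAC1 (protein-coding). Neither was called between KO and WT in CT1.0, with HOXB-AS3 at 1.01 and 1.53 TPM in KO 26 and 48 on day 4, against 0 and 0.283 TPM in WT 1 and 2.

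**Figure D5:**
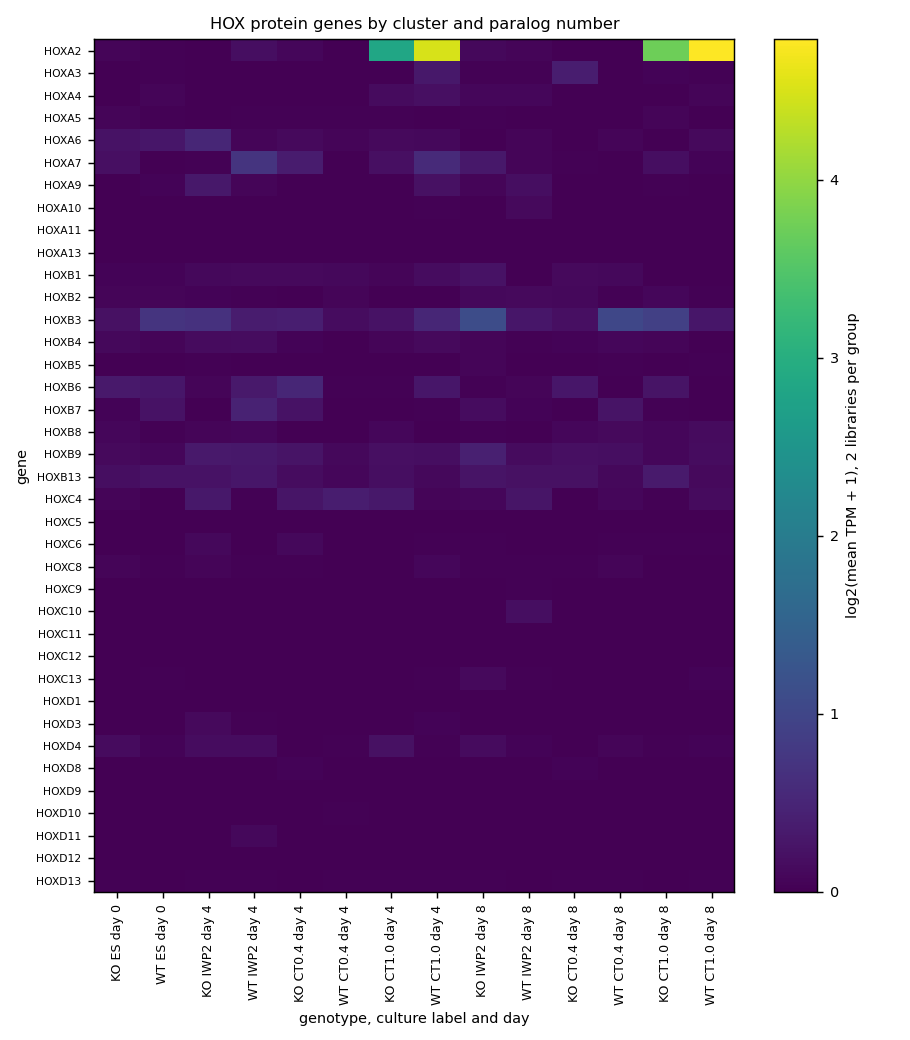
Mean TPM of HOX protein genes in each of the 14 groups, as log2(mean TPM + 1), with genes in rows by cluster and paralog number and groups in columns, KO left of WT at each label and day. HOXA2 stands out in the CT1.0 columns, and HOXB3 is the only other gene shown whose mean passes 1 TPM in a group.

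The genes most like HOTAIRM1 and HOXA2 were ranked by Pearson's correlation of group means of log2(TPM + 1) over the 14 groups, among 18212 genes. This is a description, since the groups share libraries and culture labels. Each of the pair ranked 1 for the other, with r = 0.978. Among the genes most like HOXA2 were also RARB, a retinoic acid receptor gene and a known retinoic acid target (r = 0.964), NTRK2, the neurotrophin receptor gene (r = 0.944), and RNA5SP84 (r = 0.941). Among those most like HOTAIRM1 were also NTRK2 (r = 0.927), RNA5SP84 (r = 0.922) and RNVU1-7 (r = 0.905). RNA5SP84 and RNVU1-7 were listed at 0 in most libraries, and their rank rests on single libraries. SOX1 ranked 143 for HOXA2 (r = 0.665) and 414 for HOTAIRM1 (r = 0.540), and HOXB3 had r = -0.01 with HOXA2 and 0.02 with HOTAIRM1.

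RARB and NTRK2, picked because their group means follow those of HOXA2 or HOTAIRM1, also had a low value of KO on day 4. The groups compared here entered that choice, so these tests are descriptions and no separate support. RARB stood between 0.889 and 5.43 TPM in KO CT1.0 day 4, against 11.6 to 14.1 TPM in WT CT1.0 day 4, and was called lower by 1.98 ± 0.40 (limma adjusted p = 0.00341). On day 8 it stood between 1.74 and 4.06 TPM in KO, against 7.23 to 9.11 TPM in WT, and was called lower by 1.29 ± 0.40 (adjusted p = 0.0412). NTRK2 stood between 0.677 and 9.76 TPM in KO CT1.0 day 4, against 27.0 to 32.2 TPM in WT CT1.0 day 4, and was called lower by 2.84 ± 0.55 (limma adjusted p = 0.00236). On day 8 NTRK2 had a log2 fold change of -1.35 ± 0.55 and was not called (adjusted p = 0.120). Neither RARB nor NTRK2 was called on day 4 without WT 1, without WT 2 or in a fit of the 4 compared libraries, nor NTRK2 without KO 26. On day 8 RARB was not called without WT 1, without WT 2, without KO 26 or after median-ratio scaling, with adjusted p up to 0.353 over its alternatives.

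Genes that act with HOX genes or upstream of them in the hindbrain were taken from lists and compared between KO and WT in CT1.0. Of all genes tested, 12.4% were called higher and 2.49% lower in KO on day 4, and 4.34% higher and 9.96% lower on day 8. Of the 18 genes of retinoic acid metabolism and its receptors, 16 were tested. On day 4, 4 were called higher and 2 lower in KO, with a median log2 fold change of 0.00, against 0.19 over all genes. On day 8, 1 was called higher and 3 lower, with a median of 0.02, against -0.02 over all genes. CYP26A1, the enzyme that degrades retinoic acid and a known target of it, stood at 18.5 and 118 TPM in KO 26 and 48 of CT1.0 day 4, against 259 and 314 TPM in WT 1 and 2. Its log2 fold change was -2.57 ± 0.55 (limma adjusted p = 0.00445), and like HOXA2 it was lowest in KO 26. On day 8, at 39.5 and 69.3 TPM in KO 26 and 48 against 60.3 and 38.8 TPM in WT 1 and 2, CYP26A1 overlapped between the genotypes. RARG, another receptor gene, was called higher in KO by 0.87 ± 0.18 on day 4 (limma adjusted p = 0.00358) and by 1.47 ± 0.18 on day 8 (adjusted p = 8.67e-05). CRABP1, a carrier of retinoic acid in the cell, was called lower in KO on day 8 by 1.26 ± 0.33 (limma adjusted p = 0.0158). It stood at 1593 and 3524 TPM in KO 26 and 48 of CT1.0 day 8, against 5609 and 5755 TPM in WT 1 and 2.

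All 9 genes of the PBX, MEIS and PKNOX families, which encode partners of HOX proteins on DNA, were tested. On day 4, 2 were called higher and 1 lower in KO, with a median log2 fold change of 0.38, against 0.19 over all genes. On day 8, 0 were called higher and 1 lower, with a median of -0.12, against -0.02 over all genes. MEIS2 stood at 25.7 and 46.7 TPM in KO 26 and 48 of CT1.0 day 4, against 70.0 and 79.2 TPM in WT 1 and 2, and was called lower by 1.08 ± 0.26 (limma adjusted p = 0.0107). PKNOX2 was called higher by 1.15 ± 0.22 (adjusted p = 0.00247) and MEIS3 by 0.56 ± 0.14 (adjusted p = 0.0142), the second of them lost after median-ratio scaling. PBX2 had a log2 fold change of 0.10 ± 0.07 on day 4 and PBX3 one of 0.38 ± 0.20, and neither was called on either day.

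Of 14 listed regulators of hindbrain segmentation, 8 were tested. On day 4, 1 was called higher and 2 lower in KO, with a median log2 fold change of 0.39, against 0.19 over all genes. On day 8, 2 were called higher and 1 lower, with a median of -0.25, against -0.02 over all genes. GBX2, a gene of the most anterior hindbrain, stood at 1.79 and 5.76 TPM in KO 26 and 48 of CT1.0 day 4, against 11.9 and 9.37 TPM in WT 1 and 2, and was called lower by 1.41 ± 0.39 (limma adjusted p = 0.0214). ZNF703 was called lower by 1.22 ± 0.34 on day 4 (limma adjusted p = 0.0239) and by 1.79 ± 0.34 on day 8 (adjusted p = 0.00244). On day 8 ZNF703 stood at 16.3 and 34.5 TPM in KO 26 and 48, against 80.0 and 89.7 TPM in WT 1 and 2. EPHA4, an ephrin receptor gene of hindbrain segments, was called higher in KO on day 8 by 0.93 ± 0.25 (limma adjusted p = 0.0197). In a fit of the 4 compared libraries none of the calls given for these 3 lists was kept, and CYP26A1, MEIS2, MEIS3, PKNOX2, GBX2 and ZNF703 on day 4 were not called without KO 26, nor EPHA4 on day 8. Leaving out WT 1 or WT 2 each ended these calls too, except that of PKNOX2 in both cases and that of RARG on day 8 without WT 2.

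The labelled cell types were checked against markers. The 6 pluripotency markers summed to 4090 to 4109 TPM in KO ES and to 3940 to 4007 TPM in WT ES. In CT1.0 they summed to 904 to 1109 TPM in KO and 837 to 869 TPM in WT on day 4. On day 8 they summed to 518 to 533 TPM in KO and 483 to 536 TPM in WT, which overlapped. LIN28A made up much of the sums in CT1.0, as it was at least 401 TPM in every library and was not highest in ES. The 6 neural progenitor markers summed in CT1.0 to 545 to 749 TPM in KO and 952 to 1064 TPM in WT on day 4, and to 436 to 723 TPM in KO and 1325 to 1413 TPM in WT on day 8. Of these 6 genes, 3 were called lower in KO on day 4 and 5 on day 8, at 2.49% and 9.96% of all genes called lower. Neural crest markers summed to 63.2 to 103 TPM in KO and 110 to 118 TPM in WT on day 4, and to 106 to 109 TPM in KO and 126 to 129 TPM in WT on day 8, where 2 of 6, TFAP2B and SOX10, were called higher, at 4.34% of all genes. The 7 listed primitive streak and mesoderm markers in the file summed to 2.91 to 4.49 TPM in KO and 1.5 to 1.72 TPM in WT on day 4, and to 1.88 to 3.41 TPM in KO and 0.914 to 1.11 TPM in WT on day 8, with no overlap. Of these, 3 were tested, and 1, KDR, was called higher in KO on day 4 (limma adjusted p = 0.0444) and 0 on day 8. Blood and myeloid markers, of interest because HOTAIRM1 is known from myeloid cells, summed to at most 3.20 TPM in any CT1.0 library. The part of these markers in the differences of HOXA2 and HOTAIRM1 was not tested, and in such bulk samples fewer cells that express a gene cannot be told apart from less RNA per cell.

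SOX1 itself, the gene knocked out, stood in CT1.0 at 0.705 and 3.08 TPM in KO 26 and 48, against 84.1 and 98.0 TPM in WT 1 and 2 on day 4, and at 1.14 and 2.77 TPM in KO 26 and 48, against 72.1 and 79.4 TPM in WT 1 and 2 on day 8. In ES, where HOXA2 and HOTAIRM1 were near 0, SOX1 reached at most 0.264 TPM in either genotype, so the labels cannot be checked there. Nor can they in IWP2 on day 4, where SOX1 overlapped at 0.410 and 1.14 TPM in KO 26 and 48, against 0.907 and 0.990 TPM in WT 1 and 2. On day 8 of IWP2 it stood at 1.96 and 2.77 TPM in KO 26 and 48, against 10.6 and 9.90 TPM in WT 1 and 2, but was not called (limma adjusted p = 0.134). Between 17694 and 20338 genes reached 1 TPM in a library. The 4 WT libraries of CT0.4 and CT1.0 on day 4 had the fewest, 17694 to 18233, against at least 18876 in the 24 others, and the part of this in the KO differences of day 4 was not tested.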

How the data were processed

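Poly(A)-selected RNA of 28 H9 libraries in 14 groups of 2 was sequenced in paired ends, per the labels' protocols. The authors deposited 1 table of TPM values for 58219 genes, made with CASAVA 1.7 and Salmon 0.8.2 on hg38, per the submitters' processing notes. The role of each tool, the annotation release and strandedness are not given in the sources used here. TPM keeps no read depth, so the depth of each library is unknown and no counting interval or detection floor is given.

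From these values, log2(TPM + 1) was fitted in limma 3.58.1 (R 4.3.3) over all 28 libraries with 1 mean per group and an intensity trend, for 27912 genes with at least 1 TPM in at least 2 libraries, with 14 residual degrees of freedom. The p-values were adjusted by the Benjamini-Hochberg method within each of 24 comparisons, and 0.05 was the threshold. The script was tested on simulated data. Levels and calls were recomputed under 11 alternatives, covering the pseudocount, the filter, median-ratio scaling, the variance model, the libraries fitted, a block for the library number and leaving out each library number.

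Groups come from the labels. The 5 genes and the other lists were chosen with earlier results of these data known. Genes named from a list have a group mean of at least 1 TPM, up to the 6 highest of a list. Those most like HOTAIRM1 and HOXA2 are the 5 with the highest Pearson correlation over group means. Gene models came from GENCODE 29 and promoter windows from RefSeq (GRCh38.p14), and 55050 of the 58219 gene IDs matched GENCODE 29 with their version. No 2 libraries of a group had identical values. Some genes of the lists, and 1 homeobox, are not reported here.

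The library numbers were checked for pairing. Across 10333 genes with a mean of at least 10 TPM, deviations from group means of libraries with the same number correlated between -0.0937 and 0.0783 in WT and between -0.0572 and 0.204 in KO. Of 21 pairs of groups in each genotype, 8 passed 0.1 in KO and 0 in WT. The rule asked for all pairs to pass, so the numbers were not taken to pair the libraries. A link between the KO libraries of a number is not excluded by this.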

Additional observations from a re-analysis of the deposited data

Results flagged for a closer look

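In 9 cases the KO difference of a gene reported here differed between labels or days by limma's test of the difference itself, leaving aside genes with a group listed at 0 in both libraries, PRAC1 among them; groups of 2 libraries are too small to be searched for outlying samples. No case was HOTAIRM1 or one of the 4 HOX genes described with it.

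Between day 8 and day 4 in CT1.0, the KO difference of CYP26A1 moved by 2.68 ± 0.77 (limma adjusted p = 0.0429). The KO difference of RARG on day 8 was larger in CT1.0 than in IWP2 by 1.48 ± 0.25 (limma adjusted p = 0.00588) and than in CT0.4 by 1.23 ± 0.25 (adjusted p = 0.0129). That of ZNF503, a repressor known from neural development, was 0.84 in CT1.0 on day 8. It lay above that in CT0.4 by 1.44 ± 0.27 (limma adjusted p = 0.00917), so the sign in CT0.4 was the opposite. The KO difference of MEIS3 was 0.56 in CT1.0 on day 4. It lay above that in IWP2 by 0.77 ± 0.20 (limma adjusted p = 0.0377), again with the opposite sign in IWP2. SOX1, the gene knocked out, had a KO difference in CT1.0 minus that in IWP2 of -4.96 on day 4 and -3.0 on day 8. Minus that in CT0.4 it was -3.45 on day 4 and -2.16 on day 8. On day 4 the mean of SOX1 was 0.775 TPM in KO IWP2 and 1.89 TPM in KO CT1.0. In WT it was 0.949 TPM in IWP2 and 91.0 TPM in CT1.0. With SOX1 low in KO, its cases, although counted above, mostly restate the WT level by label. They cannot decide whether the effect of the knockout changed with the label.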

How the results depend on the processing

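Sign changes occurred in 23 values of 18 results, and none of the 23 was called in either setting. After median-ratio scaling the day 4 value of PBX2 in CT1.0, KO against WT, became -0.16, and HOXB3 became 0.0094 on day 8 between CT1.0 and IWP2 in WT and -0.00057 for KO CT1.0 day 4 against ES. With a pseudocount of 0.1 HOXB3 became 0.014 for WT CT1.0 day 4 against ES, and the HOTAIRM1 KO difference in CT1.0 minus that in IWP2 on day 8 became -0.35. The others came with a library number left out. In KO against WT, HOXA2 then ran from -0.029 to 0.088 in ES and from -0.030 to 0.094 in IWP2 day 8, HOXB3 from -0.91 to 0.052 in ES and from -0.051 to 0.64 in IWP2 day 4, and HOTAIRM1 from -0.21 to 0.34 in IWP2 day 8 and from -0.19 to 0.089 in CT0.4 day 8. In CT1.0 day 8, CYP26A1 ran from -0.29 to 0.51. HOXB3 in KO CT1.0 ran from -0.89 to 0.052 against IWP2 on day 4, -0.43 to 0.096 against CT0.4 on day 4, -0.28 to 0.0082 against IWP2 on day 8 and -0.20 to 0.23 on day 4 against ES. In WT CT1.0 it ran from -0.033 to 0.0071 on day 8 against IWP2 and -0.63 to 0.38 on day 4 against ES. The KO difference in CT1.0 minus that in IWP2 ran from -2.53 to 0.070 for HOTAIRM1 on day 4 and from -0.27 to 0.021 for HOXB3 on day 8, and minus that in CT0.4 from -0.083 to 0.68 for HOTAIRM1 on day 8. HOXB3 was called in 0 of its 264 values under the alternatives, and HOTAIRM1 stayed on its side of the threshold in 247 of 264 and HOXA2 in 239 of 264. Counts here are of the 3 tested genes called. In KO against WT in CT1.0 the count was 1 on day 4. It became 2 after median-ratio scaling, 2 with the library number as a replicate block, 0 in a fit of the compared libraries only, and 0 to 2 with a library number left out. On day 8 the count was 0, and 0 to 1 with a library number left out. Fitting only the compared libraries gave 0 called, against 2, for KO CT1.0 against IWP2 on day 4 and on day 8, against CT0.4 on day 4 and against ES, and 1 against CT0.4 on day 8. For KO CT1.0 against CT0.4 on day 4 the count was 1 without the filter and 1 without the trend. With a library number left out, counts ran from 1 to 2 for KO CT1.0 against IWP2 on day 4, and from 0 to 2 for KO and for WT CT1.0 against CT0.4 on day 4. Between day 8 and day 4 the KO count of 1 became 0 with a pseudocount of 0.1 and 0 with the compared libraries only, and was 1 to 2 with a library number left out. The WT count of 0 was then 0 to 1. The 5 tests of whether the KO difference changed with label or day gave 0. Counts with a library number left out are not given for these tests, as 1 library per group then remains in that genotype. The cause of the changes in the counts was not tested. The replicate block changed the call of 2 of 134 values, the day 4 count above and HOTAIRM1 in it (limma adjusted p = 0.0489, over its alternatives 0.000849 to 0.763). Over all genes, median-ratio scaling turned 3453 called higher and 694 lower in KO CT1.0 day 4 into 1765 and 2547, and 1210 and 2779 on day 8 into 1644 and 1890. Unknown depth limits what can be said of HOXB1 and HOXB2.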
